A study of Mus musculus with 12 samples.

Results

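Acetate diet in tau-injected mice was followed by bulk RNA-seq of the dorsal hippocampus, in 6 of the 12 mice of the series. All 12 were wild-type C57Bl6/J mice, 6 months old at a single injection into the right dorsal hippocampus, and the injected side was dissected 6 months later, after a fear memory recall test. The mice compared here were seeded with 1 µg AD tau, insoluble tau purified from the brain of people with Alzheimer's disease, and then kept either on chow with 5% sodium acetate (3 acetate mice) or on a calorically equivalent chow (3 control mice). PBS-injected mice on the same diets, 3 on each, entered the fit and the test of the difference between the diet effects. The seed is a protein and the diet adds no transcript, so the counts hold no direct check of either label. The members of this comparison were all genes counted in the 6 mice, 24985 in the table and 14742 with enough reads to test.

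Acetate is turned into acetyl-CoA by acetyl-CoA synthetases such as ACSS2, and acetyl-CoA is the donor for histone acetylation as well as the building block of fatty acids and sterols. In the brain, oligodendrocytes use acetate released from N-acetylaspartate to make myelin lipids, and astrocytes oxidise acetate as a fuel. Glial, lipid, stress and RNA-processing genes were followed group by group beside the test over all genes, in lists chosen with earlier results known.

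Library totals ran from 12983233 to 20218340 counted reads, with 13219793 to 15153232 in the control mice and 15401569 to 20218340 in the acetate mice. Levels are CPM, the usual depth-normalized read count, after TMM scaling, whose factors lay between 0.99 and 1.01, and the common biological coefficient of variation was 7.25%. The mice are labelled male, but Xist, which coats the silenced X chromosome of female cells, reached 920 to 1340 CPM in all 12 libraries and the Y-linked genes looked up had 0 counts in each. Granule, CA1 and CA3 neuron markers of the hippocampus were present in each of the 6 tau-injected mice, and 4 of 5 blood genes had no count there. Acetate mouse 3 stood apart, with Ttr, the choroid plexus transthyretin, at 399 CPM against 36.7 to 148 CPM in the other 5 tau-injected mice. Results are therefore given with and without this mouse, a choice made with its values known. In bulk tissue, a different number of cells of a type and a different amount of RNA per cell cannot be told apart. Acss2 itself had 52.3, 57.6 and 57.1 CPM in the control mice and 57.7, 53.3 and 50.5 CPM in the acetate mice, a log2 fold change of -0.05 (standard error, SE, 0.07, with an edgeR adjusted p of 0.877).

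The test of acetate against control diet in tau-injected mice called 9 genes. By edgeR's quasi-likelihood test, at a Benjamini-Hochberg adjusted p below 0.1, 6 of 14742 genes were higher (0.0407%) and 3 were lower (0.0204%), and before adjustment 806 were higher and 797 lower at p below 0.05. The higher genes were Plin4, Car14, Myoc, Arrdc2, Scd1 and Rgma, and the lower ones Dr1, Luzp2 and Nlgn1. In each of the 9, acetate mouse 3 lay on the same side of all 3 control mice as acetate mice 1 and 2, and each was called again when it was left out.

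Of the 6 higher genes, 2 act in lipid metabolism. Plin4 encodes a perilipin that coats lipid droplets and lies on chromosome 17 from 56100591 to 56109803 (GRCm38). It had 2.02, 1.66 and 2.44 CPM in control mice 1 to 3 and 5.01, 4.66 and 5.65 CPM in acetate mice 1 to 3. The groups were far apart although the gene is expressed at a low level, and the difference was 2.51-fold (log2 fold change 1.33, SE 0.22, edgeR adjusted p = 0.0467). Scd1, on chromosome 19 from 44394455 to 44407879, encodes stearoyl-CoA desaturase, which makes monounsaturated fatty acids. Its level was 161, 150 and 168 CPM in the control mice and 220, 199 and 188 CPM in the acetate mice. All acetate mice were higher, acetate mouse 3 by the least, and the difference was 1.27-fold (log2 fold change 0.34, SE 0.06, edgeR adjusted p = 0.0676).

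Secreted and surface proteins made up the next group. Myoc, on chromosome 1 from 162639155 to 162649693, encodes myocilin, a secreted glycoprotein best known from the eye. It had 14.1, 15.6 and 14.1 CPM in the control mice and 26.3, 25.3 and 23.7 CPM in the acetate mice. The spread within each group was small beside the gap between them, and the change was 1.72-fold (log2 fold change 0.78, SE 0.10, edgeR adjusted p = 0.00244). Car14, on chromosome 3 from 95897768 to 95904691, encodes a membrane-bound carbonic anhydrase that interconverts carbon dioxide and bicarbonate. Its level was 6.78, 6.70 and 7.17 CPM in the control mice and 13.4, 11.8 and 11.4 CPM in the acetate mice, a 1.78-fold change (log2 fold change 0.83, SE 0.13, edgeR adjusted p = 0.0353). Rgma, on chromosome 7 from 73375509 to 73419899, encodes a repulsive guidance molecule held at the cell surface. It had 44.4, 43.7 and 45.3 CPM in the control mice and 57.7, 52.8 and 56.2 CPM in the acetate mice, a 1.25-fold change (log2 fold change 0.32, SE 0.06, edgeR adjusted p = 0.0844). None of these groups overlapped, and the control mice differed from each other by less than 2 CPM in each gene.

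Arrdc2, on chromosome 8 from 70835129 to 70839720, encodes an arrestin-domain protein of the family that links membrane proteins to ubiquitin ligases. The control mice were nearly identical, with 11.1, 11.1 and 11.1 CPM, and the acetate mice had 16.3, 15.2 and 16.5 CPM. The change was 1.44-fold (log2 fold change 0.53, SE 0.10, edgeR adjusted p = 0.0844), and acetate mouse 3 was the highest of the acetate mice.

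Among the genes that fell, Dr1 encodes a subunit of the NC2 repressor, which binds the TATA-box binding protein, and is also part of the ATAC histone acetyltransferase complex. It lies on chromosome 5 from 108268897 to 108280526 and had 63.3, 60.9 and 66.4 CPM in the control mice and 49.1, 52.1 and 46.1 CPM in the acetate mice. Its log2 fold change was -0.37 (SE 0.07, edgeR adjusted p = 0.0676). Nlgn1 encodes neuroligin 1, a postsynaptic adhesion protein of excitatory synapses, on chromosome 3 from 25426215 to 26332460. The control mice had 139, 153 and 150 CPM and the acetate mice 124, 122 and 122 CPM, a log2 fold change of -0.26 (SE 0.05, edgeR adjusted p = 0.0844). Luzp2, on chromosome 7 from 54835498 to 55268885, had 158, 160 and 156 CPM in the control mice and 130, 127 and 127 CPM in the acetate mice, a log2 fold change of -0.30 (SE 0.05, edgeR adjusted p = 0.0676). In these 3 genes the acetate mice were all lower, and the mice of a diet stayed close together.

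**Figure D1:**
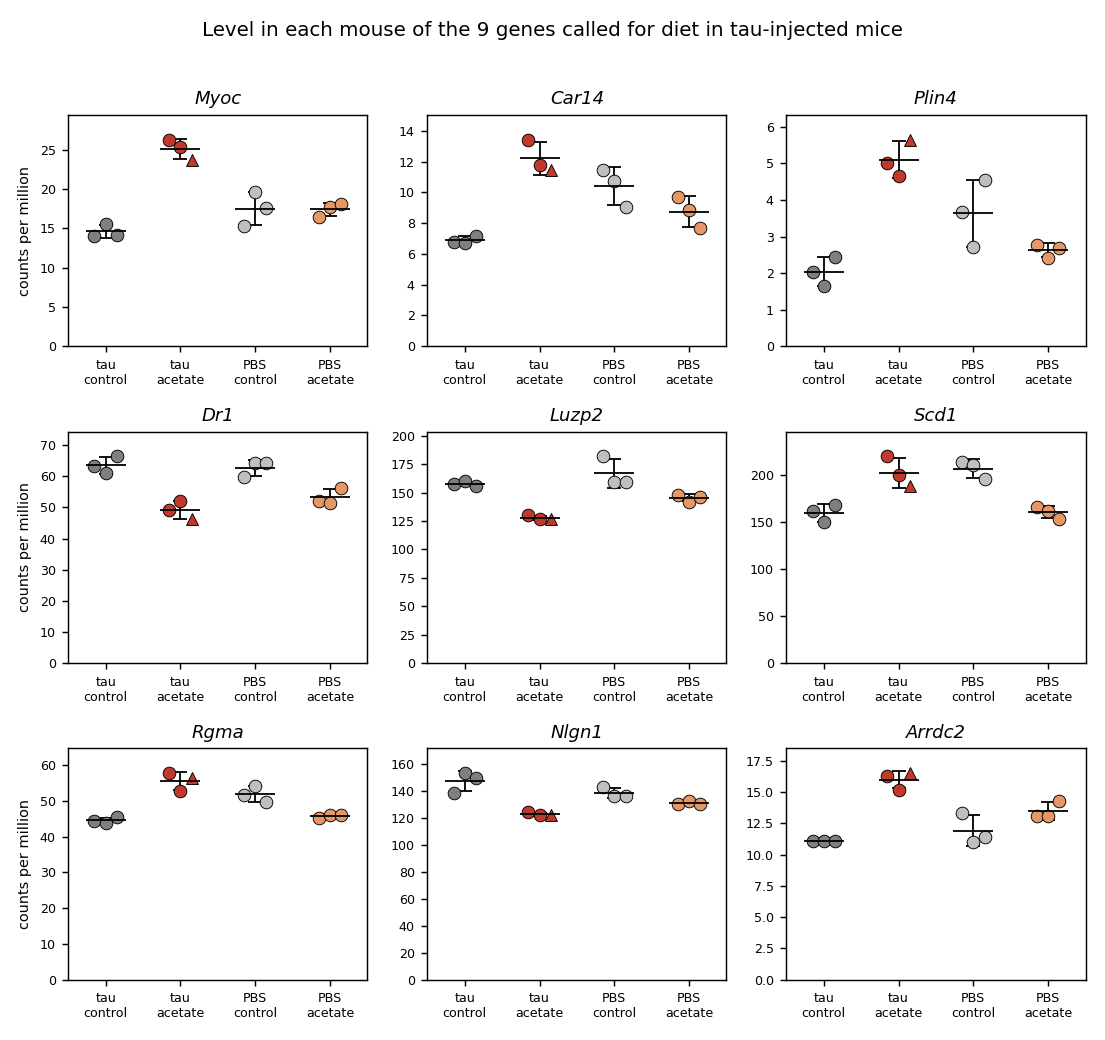
Level (CPM, linear axis from 0) of the 9 called genes in each of the 12 mice, by injection and diet, with the mean and SD of 3 mice as lines and acetate mouse 3 of the tau-injected group as a triangle. In tau-injected mice the acetate and control points do not overlap in any of the 9 panels, with Plin4 at 4.66 to 5.65 CPM against 1.66 to 2.44 CPM.

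The 9 calls were not equally firm. When the 12 mice were left out 1 at a time, Myoc was called in all 12 fits, with a log2 fold change between 0.76 and 0.83. All 9 log2 fold changes kept their sign, which the lack of overlap between the groups fixed in advance. Plin4 and Car14 were called in 9 of the 12 fits, Dr1, Luzp2 and Scd1 in 7, and Arrdc2, Rgma and Nlgn1 in 5. Without control mouse 2, control mouse 3 or acetate mouse 1, Myoc was the one gene of the 9 still called. DESeq2's Wald test on the same mice called Scd1, Rgma, Luzp2, Dr1 and Nlgn1 too, and gave no adjusted p for the other 4. Fitted on the 6 tau-injected mice alone, edgeR called Myoc and Car14, and a choroid plexus covariate ended the calls of Luzp2, Arrdc2, Nlgn1 and Rgma.

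The promoters of these genes were read for short motifs of factors linked to lipid, stress and acetyl-CoA metabolism. RefSeq start sites (GRCm38.p6) were given for 7 of the 9 genes, and the window ran from 250 bases before to 50 bases after the start. The glucocorticoid response element core ACANNNTGT was found, on either strand, in 1 of the 7 (Car14) and in 7.90% of the 27025 genes with a promoter. The heat shock element GAANNTTC was found in 1 of the 7 (Myoc) and in 9.04% of genes, and the E-box CACGTG in 1 of the 7 (Dr1) and in 8.09% of genes. GTAAACA, bound by FoxO factors, the cAMP response element TGACGTCA and the sterol regulatory element TCACNCCAC were found in none of the 7, and in 4.05%, 2.03% and 1.44% of genes. The 250 bases before the start are printed for Car14 and Dr1, which hold a match there (in capitals), and for Plin4 and Arrdc2, which were listed as glucocorticoid and FoxO targets and hold none of the 6 motifs. They lie at chr3:95904686-95904935 on the minus strand (Car14), chr5:108268647-108268896 on the plus strand (Dr1), chr17:56109783-56110032 on the minus strand (Plin4) and chr8:70839721-70839970 on the minus strand (Arrdc2), and run 5′ to 3′ toward the start site.
Car14: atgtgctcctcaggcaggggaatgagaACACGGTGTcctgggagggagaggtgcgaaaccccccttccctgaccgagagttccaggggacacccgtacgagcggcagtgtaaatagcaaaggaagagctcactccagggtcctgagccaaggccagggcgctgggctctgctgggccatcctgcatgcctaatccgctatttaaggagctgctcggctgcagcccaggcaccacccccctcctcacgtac
Dr1: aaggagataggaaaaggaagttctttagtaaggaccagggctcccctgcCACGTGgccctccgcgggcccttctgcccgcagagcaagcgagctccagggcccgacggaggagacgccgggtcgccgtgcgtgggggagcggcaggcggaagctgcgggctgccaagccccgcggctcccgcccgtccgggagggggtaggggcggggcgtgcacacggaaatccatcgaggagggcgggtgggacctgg
Plin4: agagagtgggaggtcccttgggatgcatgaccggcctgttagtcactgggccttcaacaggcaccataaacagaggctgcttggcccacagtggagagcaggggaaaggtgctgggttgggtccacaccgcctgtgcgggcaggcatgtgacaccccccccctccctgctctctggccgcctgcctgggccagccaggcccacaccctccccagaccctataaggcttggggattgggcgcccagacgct
Arrdc2: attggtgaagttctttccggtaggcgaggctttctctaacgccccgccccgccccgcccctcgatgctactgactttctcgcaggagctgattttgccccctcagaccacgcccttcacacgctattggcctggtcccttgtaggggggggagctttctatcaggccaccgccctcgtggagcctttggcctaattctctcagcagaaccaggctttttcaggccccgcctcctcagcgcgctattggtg
No motif was found in more than 1 of the 7 promoters, and a match describes letters, not a bound site.

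Acetate mouse 3 differed from the other acetate mice in choroid plexus and in a second set of genes. It lay above all 3 control mice in 16 of the 16 choroid plexus genes tested, against 26.3% of all genes, and below them in none, against 24.7% of all genes. Kcne2, a potassium channel subunit of the choroid plexus, had 0.361, 0.332 and 0.610 CPM in the control mice and 0, 0.242 and 3.92 CPM in the acetate mice. The summed level of the list was 301 to 483 CPM in the control mice, 391.8 and 365 CPM in acetate mice 1 and 2, and 928 CPM in acetate mouse 3. No choroid plexus gene passed the test in either fit, and the list had a median log2 fold change of 0.42 with all mice and of -0.48 without acetate mouse 3, beside a median of 0.00 over all genes tested.

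In 21 genes the log2 fold change fell by more than 1 when acetate mouse 3 was left out, and in 0 genes it rose by as much. Of the 21, 5 belong to the choroid plexus list. Several of the others, named after their values were seen, are known from the medial habenula, a small nucleus beside the third ventricle next to the hippocampus. Chrnb3, a nicotinic receptor subunit, had 6.81 CPM in acetate mouse 3 and 0.198 to 0.916 CPM in the other 5 tau-injected mice. Gpr151, a habenular orphan receptor, had 11.4 CPM against 0.839 to 1.79 CPM, and Tac2, the neurokinin B precursor, had 12.7 CPM against 0.793 to 2.00 CPM. Slc5a7, the choline transporter of cholinergic neurons, had 5.78 CPM against 0.216 to 1.13 CPM. Among markers listed for the thalamus, Zic1 had 31.0 CPM in this mouse against 4.51 to 8.70 CPM, and Slc17a6, a vesicular glutamate transporter, had 16.6 CPM against 2.31 to 6.35 CPM. PBS-injected control mouse 2 had comparable levels of both, 30.0 and 28.7 CPM. None of these genes passed the test, and the part of choroid plexus and habenular RNA in the diet results was not tested.

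**Figure D2:**
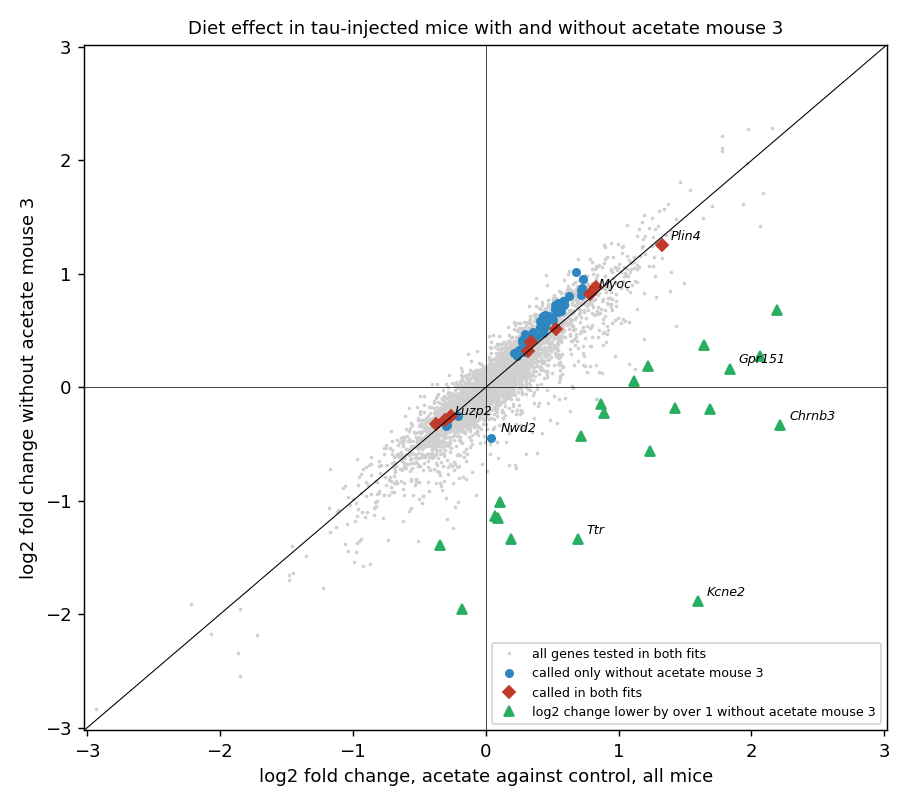
Log2 fold change of acetate against control diet in tau-injected mice with all mice in the fit (horizontal axis) and without acetate mouse 3 (vertical axis), 1 point per gene, with equal axes and the line of equality. The 9 genes called in both fits (diamonds) lie on the line, the 57 called only without acetate mouse 3 (circles) lie mostly above it on the positive side, and the 21 genes whose value fell by over 1 (triangles) lie far below it.

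Without acetate mouse 3, the comparison of 2 acetate with 3 control mice called 59 of 14917 genes higher (0.396%) and 7 lower (0.0469%), which included all 9 genes above. When control mouse 1 or 2 was left out as well, 1 gene was called higher, and when control mouse 3 was, 54 were. The cause of these shifts was not tested, and each such fit also has fewer mice. Of the 53 further genes that were higher, 7 are in the myelin and oligodendrocyte list. Thus 7 of the 21 genes of that list were called higher, beside 0.396% of all genes. Oligodendrocytes are the glia that form myelin. All 53 also had a positive value with all mice, which is largely fixed, since acetate mice 1 and 2 and the control mice entered both fits. Acetate mouse 3 lay above all 3 control mice in 29 of the 53, against 26.3% of all genes, and did not in the other 24. The same control mice entered the calls, so this share, too, is partly fixed. The 4 further genes that were lower were Insig2, Lin7a, Nwd2 and Dzip3. In 3 of them acetate mouse 3 lay below the control mice, against 24.7% of all genes.

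Genes for myelin structure were higher in acetate mice 1 and 2. Mbp, which encodes myelin basic protein, had 2056, 2010 and 2364 CPM in the control mice and 3655, 3316 and 2312 CPM in the acetate mice. Cnp, the myelin enzyme 2′,3′-cyclic nucleotide phosphodiesterase, had 260, 255 and 304 CPM against 459, 420 and 298 CPM. In both genes acetate mice 1 and 2 stood above the control mice and acetate mouse 3 lay among them. Without acetate mouse 3 the log2 fold change was 0.71 for Mbp and 0.69 for Cnp (edgeR adjusted p = 0.0762 for each), and with all mice it was 0.53 and 0.52 (edgeR adjusted p = 0.342 and 0.335). Gjb1, which encodes the connexin of oligodendrocyte gap junctions, had 11.3, 9.95 and 13.3 CPM in the control mice and 21.9, 17.8 and 13.1 CPM in the acetate mice. Opalin, an oligodendrocyte membrane protein, had 16.5, 17.5 and 20.3 CPM against 32.1, 28.3 and 18.1 CPM.

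Oligodendrocyte transcription factors and a myelin lipid enzyme were also highest in acetate mice 1 and 2. Sox10, which directs oligodendrocyte identity, had 46.2, 44.6 and 48.7 CPM in the control mice and 75.7, 68.1 and 45.3 CPM in the acetate mice. Nkx6-2, another oligodendrocyte factor, had 9.30, 9.82 and 11.9 CPM against 17.8, 16.2 and 12.4 CPM, so that here acetate mouse 3 was still above the control mice. Fa2h, which hydroxylates the fatty acids of myelin galactolipids, had the second smallest p without acetate mouse 3. Its level was 28.6, 32.8 and 38.0 CPM in the control mice and 57.7, 50.03 and 36.2 CPM in the acetate mice, a log2 fold change of 0.71 without acetate mouse 3 (edgeR adjusted p = 0.0140) and of 0.54 with it (edgeR adjusted p = 0.258).

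Outside the 21 genes of the myelin list, the genes with the smallest p without acetate mouse 3 were again higher. Whether they are expressed in oligodendrocytes was not tested. Csrp1, a LIM-domain protein, had 243, 228 and 252 CPM in the control mice and 313, 315 and 272 CPM in the acetate mice. Ddr1, a collagen receptor kinase, had 72.8, 75.8 and 82.0 CPM against 121, 99.0 and 92.0 CPM, and Gsn, the actin-severing protein gelsolin, had 43.7, 45.2 and 45.5 CPM against 68.7, 61.4 and 53.2 CPM. These 3 genes kept acetate mouse 3 above every control mouse, as did Dbndd2, Adamtsl4, Efhd1, Plekhb1, Tppp3 and Sept4. Their log2 fold changes with all mice ran from 0.30 for Dbndd2 to 0.72 for Adamtsl4, with edgeR adjusted p between 0.164 and 0.287. Car2, a cytosolic carbonic anhydrase abundant in oligodendrocytes, had 176, 161 and 192 CPM in the control mice and 239, 253 and 185 CPM in the acetate mice, with acetate mouse 3 inside the control range. Fth1, the heavy chain of the iron store ferritin, behaved alike, with 2249, 2067 and 2154 CPM against 2659, 2647 and 2202 CPM, although the gene has processed copies that can share its reads. Galnt6, Ttyh2, Rassf2, Nkain1, Litaf and Tmbim1 also had acetate mouse 3 inside the control range. Exons of Dbndd2 and Sept4 overlap those of another gene on the same strand (Gm20458 and Gm11492).

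The whole myelin and oligodendrocyte list set acetate mice 1 and 2 apart from acetate mouse 3. Acetate mice 1 and 2 lay above all 3 control mice in 21 of 21 genes, against 11.5% of all genes, and below them in none, against 11.7%. Acetate mouse 3 did so in 3 of 21. The summed level of the list was 5730, 5563 and 6756 CPM in control mice 1 to 3 and 10214, 9029 and 6342 CPM in acetate mice 1 to 3. With all mice the median log2 fold change was 0.52, with 21 of 21 genes positive and 0 called by edgeR. DESeq2 called 3 of the 17 it gave an adjusted p for (Fa2h, Aspa and Myrf), against 0.862% of all genes called higher by DESeq2. Without acetate mouse 3 the median was 0.69 and 7 of 21 genes were called higher, against 0.396% of all genes. Without acetate mouse 1 the median was 0.39. Of the 12 oligodendrocyte precursor genes, 11 had a positive value and none was called in either fit, with a median of 0.15. Enpp6, a marker of newly forming oligodendrocytes, had 5.34, 7.63 and 7.71 CPM in the control mice and 14.4, 10.95 and 9.63 CPM in the acetate mice (log2 fold change 0.77, edgeR adjusted p = 0.276).

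**Figure D3:**
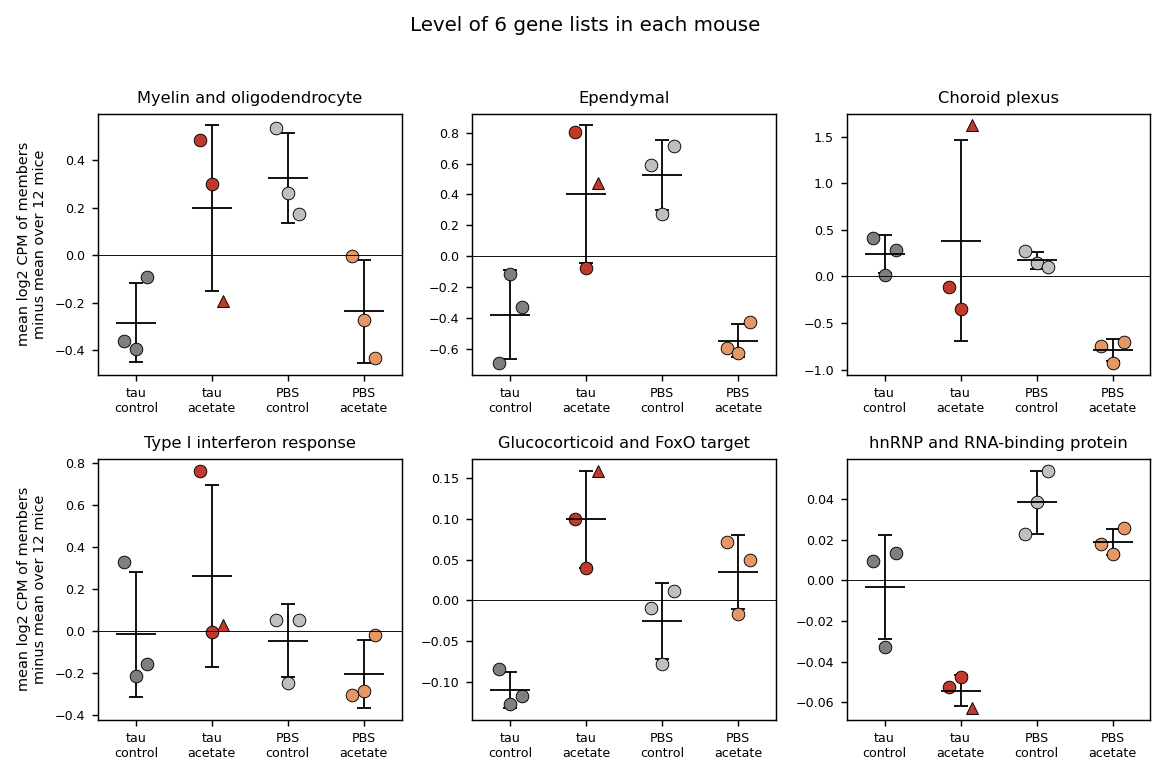
Level of 6 gene lists in each of the 12 mice, as the mean log2 CPM of the tested members after each gene's mean over the 12 mice is set to 0, with the mean and SD of 3 mice as lines and tau-injected acetate mouse 3 as a triangle (each panel has its own scale). Tau-injected acetate mouse 3 is lowest of its group for the myelin list and highest for the choroid plexus list, whereas for the glucocorticoid and FoxO and the hnRNP lists the 3 acetate mice stand apart from the 3 control mice.

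Ependymal genes, which serve the cilia of the cells lining the ventricle, had a positive value in all 12 tested members, with a median log2 fold change of 0.89 and of 0.84 without acetate mouse 3. In 6 of the 12 all 3 acetate mice lay above all 3 control mice, against 6.66% of all genes tested, and edgeR called none with all mice. Tppp3, a tubulin-binding protein, had 20.7, 22.5 and 25.1 CPM in the control mice and 37.7, 34.0 and 27.7 CPM in the acetate mice, and was called by edgeR without acetate mouse 3 (log2 fold change 0.66, edgeR adjusted p = 0.0532) and by DESeq2 with all mice (DESeq2 adjusted p = 0.0189). Pifo, a ciliary protein, had 0.361, 0.332 and 0.381 CPM against 1.14, 0.726 and 0.963 CPM (log2 fold change 1.39, edgeR adjusted p = 0.246). The summed level of the list was 42.7 to 57.5 CPM in the control mice and 102, 66.6 and 77.1 CPM in the acetate mice. Tppp3 was a large part of this sum. In the mean log2 level, where each member counts alike, acetate mouse 2 (-0.08) lay close to control mouse 2 (-0.12). The ependymal level, unlike the choroid plexus level, did not set acetate mouse 3 apart. The part of ventricular tissue in the other results was not tested.

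Astrocyte and microglial genes gave few calls. Of the 19 homeostatic astrocyte genes 13 were positive, with a median of 0.06 and none called. Kcnj10, the inward rectifier channel that buffers potassium, had 179, 178 and 184 CPM in the control mice and 208, 202 and 202 CPM in the acetate mice (log2 fold change 0.18, edgeR adjusted p = 0.278). Of 16 reactive astrocyte genes none was called by edgeR. DESeq2 called Vim, the intermediate filament vimentin, which had 41.9, 35.7 and 40.4 CPM in the control mice and 66.1, 47.1 and 52.4 CPM in the acetate mice (log2 fold change 0.49, edgeR adjusted p = 0.168). In both Kcnj10 and Vim the groups did not overlap. The 16 homeostatic microglial genes had a median of 0.09 and 12 positive values, with none called.

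Among 16 tested genes of disease-associated microglia, 15 were positive, with a median of 0.16. Csf1, a growth factor for microglia, was called without acetate mouse 3, with 31.8, 31.2 and 33.1 CPM in the control mice and 43.2, 38.3 and 34.9 CPM in the acetate mice (log2 fold change 0.35, edgeR adjusted p = 0.0904). Lpl, lipoprotein lipase, ran the other way, with 69.6, 62.0 and 63.2 CPM against 60.9, 44.8 and 43.4 CPM (log2 fold change -0.38, edgeR adjusted p = 0.463). The summed level of the list overlapped through acetate mouse 3 alone, at 2381 to 2651 CPM in the control mice and 2634 to 2743 CPM in the acetate mice.

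Interferon-response genes were high in 1 acetate mouse. Of 19 tested members 17 had a positive value, with a median of 0.34 and none called in either fit. The summed level was 179, 152 and 142 CPM in the control mice and 232, 153 and 156 CPM in the acetate mice. Without acetate mouse 1 the median was -0.02. Cxcl10, an interferon-induced chemokine kept in the reactive astrocyte list, had 3.32 CPM in acetate mouse 1 and 0.321 to 0.433 CPM in the other 5 mice.

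Vascular and neuronal markers are given to describe the dissections. No endothelial, mural or meningeal gene was called by edgeR, and their medians were 0.10, -0.03 and 0.14. Slc2a1, the glucose transporter of the blood-brain barrier, had 72.6, 73.5 and 60.5 CPM in the control mice and 89.7, 84.8 and 83.0 CPM in the acetate mice, and was called by DESeq2 (log2 fold change 0.32, edgeR adjusted p = 0.168). CA1 markers had a median of 0.12 and CA3 markers of -0.22, and without acetate mouse 3 these were 0.02 and -0.11. That mouse lay above all 3 control mice in 5 of 6 CA1 markers, against 26.3% of all genes. It lay below them in 6 of 8 CA3 markers, against 24.7%. The summed CA3 level was 413, 347 and 440 CPM in the control mice and 417, 310 and 273 CPM in the acetate mice, lowest in acetate mouse 3. Dentate granule markers had a median of 0.15, and inhibitory neuron markers of -0.02, of which DESeq2 called Cnr1 lower, the CB1 cannabinoid receptor. The meningeal, mural and inhibitory neuron medians changed sign when 1 of the 6 mice was left out, reaching -0.02, 0.06 and 0.03.

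Among lipid genes, edgeR's calls with all mice were Scd1 and Plin4. In the fatty acid synthesis list 13 of 16 genes were positive, with a median of 0.11 and of 0.05 without acetate mouse 3. Srebf1, the transcription factor for this pathway, had 60.4, 56.0 and 56.2 CPM in the control mice and 75.6, 67.6 and 70.1 CPM in the acetate mice, and was called by DESeq2 (log2 fold change 0.31, edgeR adjusted p = 0.182). In the lipid droplet and triglyceride list 15 of 20 genes were positive, the median was 0.13, and all 3 acetate mice lay above all 3 control mice in 8 of 20, against 6.66% of all genes. Lpin1, the phosphatidate phosphatase of triglyceride synthesis, had 29.2, 28.1 and 34.9 CPM in the control mice and 40.1, 37.1 and 36.8 CPM in the acetate mice (log2 fold change 0.31, edgeR adjusted p = 0.204), and DESeq2 called it.

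Cholesterol synthesis leaned the other way, with 17 of 24 genes negative, a median of -0.10 and none called by edgeR. The median was -0.05 without acetate mouse 3, -0.04 without control mouse 2, -0.03 without acetate mouse 2 and -0.18 without acetate mouse 1. Stard4, a sterol transfer protein, had 24.1, 28.1 and 31.5 CPM in the control mice and 22.8, 20.99 and 20.3 CPM in the acetate mice, and was the single member called by DESeq2 (log2 fold change -0.38, edgeR adjusted p = 0.208). Sqle, squalene epoxidase, had 59.9, 67.9 and 64.0 CPM against 58.5, 49.5 and 50.6 CPM (log2 fold change -0.27, edgeR adjusted p = 0.276). Insig2, outside the list, encodes an anchor that holds back sterol-regulated transcription factors and was called lower without acetate mouse 3. It had 53.7, 59.3 and 54.0 CPM in the control mice and 43.6, 44.4 and 49.1 CPM in the acetate mice (log2 fold change -0.33 without acetate mouse 3, edgeR adjusted p = 0.0805).

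Lipid transport genes had a median of 0.12, with 13 of 16 positive. Apod, an apolipoprotein made by glia, had 124, 112 and 123 CPM in the control mice and 191, 181 and 136 CPM in the acetate mice, and DESeq2 called it (log2 fold change 0.51, edgeR adjusted p = 0.297). Fatty acid oxidation and ketone genes had a median of -0.01, with 8 of 20 positive and none called. Of 14 acetate and acetyl-CoA genes 9 were positive, with a median of 0.02. Aspa, the oligodendrocyte enzyme that frees acetate from N-acetylaspartate, had 14.2, 13.2 and 19.8 CPM in the control mice and 27.6, 24.0 and 18.0 CPM in the acetate mice (log2 fold change 0.57, edgeR adjusted p = 0.335). Aspa is itself a member of the myelin list, so its order of mice is part of the myelin pattern above. Acss3, a mitochondrial acyl-CoA synthetase, was low throughout, with 1.15, 0.796 and 1.45 CPM in the control mice and 2.08, 2.36 and 2.57 CPM in the acetate mice (log2 fold change 1.05, edgeR adjusted p = 0.211).

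Stress genes split by pathway. Of 28 glucocorticoid and FoxO targets, 24 were positive, with a median of 0.13, and in 7 of the 28 all 3 acetate mice lay above all 3 control mice, against 6.66% of all genes. By edgeR, Plin4 and Arrdc2 were called with all mice, and Fbxo32, a ubiquitin ligase subunit of muscle wasting, without acetate mouse 3, while DESeq2 called Fbxo32 with all mice (DESeq2 adjusted p = 0.0189). The list was chosen with earlier results of these data known, so its counts and calls are no test of the pathway. Fbxo32 had 32.9, 23.8 and 28.8 CPM in the control mice and 38.9, 40.2 and 36.2 CPM in the acetate mice (log2 fold change 0.48 without acetate mouse 3, edgeR adjusted p = 0.0821, and 0.43 with it, edgeR adjusted p = 0.168). Mt1, a metallothionein, had 149, 153 and 132 CPM against 182, 162 and 183 CPM and was called by DESeq2 (log2 fold change 0.28, edgeR adjusted p = 0.182). The summed level of the list was 1495, 1508 and 1471 CPM in the control mice and 1648, 1568 and 1708 CPM in the acetate mice, with no overlap and with acetate mouse 3 the highest.

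Heat shock genes were mostly negative, 17 of 23, with a median of -0.10, and in 7 of 23 all 3 acetate mice lay below all 3 control mice, against 7.77% of all genes tested. None was called by either tool. Chordc1, a co-chaperone of HSP90, had 69.0, 66.8 and 80.3 CPM in the control mice and 59.0, 64.3 and 60.1 CPM in the acetate mice (log2 fold change -0.24, edgeR adjusted p = 0.247). Cryab, the small heat shock protein alpha B-crystallin, did not follow the rest, with 71.8, 62.1 and 75.0 CPM against 100.0, 99.9 and 63.5 CPM, high in acetate mice 1 and 2 alone. Medians of the unfolded protein response, integrated stress response, antioxidant and immediate early lists were -0.08, 0.09, 0.04 and 0.08, with no member called by either tool. The immediate early median was -0.06 without control mouse 2, and the unfolded protein response median lay between -0.15 (without acetate mouse 2) and -0.01 (without control mouse 3).

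RNA-processing genes gave no calls by edgeR. Of 45 hnRNP and RNA-binding protein genes, 34 were negative, with a median of -0.05, and in 10 of the 45 all 3 acetate mice lay below all 3 control mice, against 7.77% of all genes. None was called by edgeR, with or without acetate mouse 3, and DESeq2 called Elavl2 and Celf4. Elavl2, a neuronal RNA-stabilising protein, had 97.7, 96.9 and 108 CPM in the control mice and 86.8, 76.5 and 60.1 CPM in the acetate mice (log2 fold change -0.43, edgeR adjusted p = 0.280, and -0.30 without acetate mouse 3, which was the lowest). Celf4, a translation and splicing regulator of neurons, had 585, 611 and 588 CPM against 537, 519 and 492 CPM (log2 fold change -0.21, edgeR adjusted p = 0.208). Tardbp, which encodes TDP-43, had 230, 217 and 235 CPM against 208, 202 and 212 CPM (log2 fold change -0.13, edgeR adjusted p = 0.352). The summed level of the list was 9879, 9515 and 9941 CPM in the control mice and 9442, 9458 and 9402 CPM in the acetate mice, with no overlap but a narrow margin between acetate mouse 2 and control mouse 2.

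Splicing factors gave no calls by either tool. SR proteins and splicing regulators were negative in 20 of 29 genes with a median of -0.04, and core spliceosome genes in 21 of 35 with a median of -0.03. Among 16 long noncoding RNAs the median was -0.05, DESeq2 called Rian lower, and Neat1, the scaffold of paraspeckles, had 158, 128 and 191 CPM in the control mice and 278, 222 and 189 CPM in the acetate mice (log2 fold change 0.53, edgeR adjusted p = 0.419). Dr1 was the only gene called in the lists of its complexes, where 0.0204% of all genes were called lower. The other 24 genes of the TATA-box initiation list and the other 10 of the ATAC complex list were not called. The medians were -0.02 and -0.04. In 4 of the 25 TATA-box genes, Dr1 among them, all 3 acetate mice lay below all 3 control mice, against 7.77% of all genes. In 1 they lay above, against 6.66%. Acetate mouse 3 lay below the control mice in 12 of the 25, against 24.7%, and above them in 2, against 26.3%. Kat2b, an acetyltransferase of the ATAC list, had 19.3, 17.4 and 23.9 CPM in the control mice and 25.9, 24.9 and 24.5 CPM in the acetate mice (log2 fold change 0.32, edgeR adjusted p = 0.276). Ribosomal protein and oxidative phosphorylation genes had medians of 0.04 and -0.03 with none called.

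**Figure D4:**
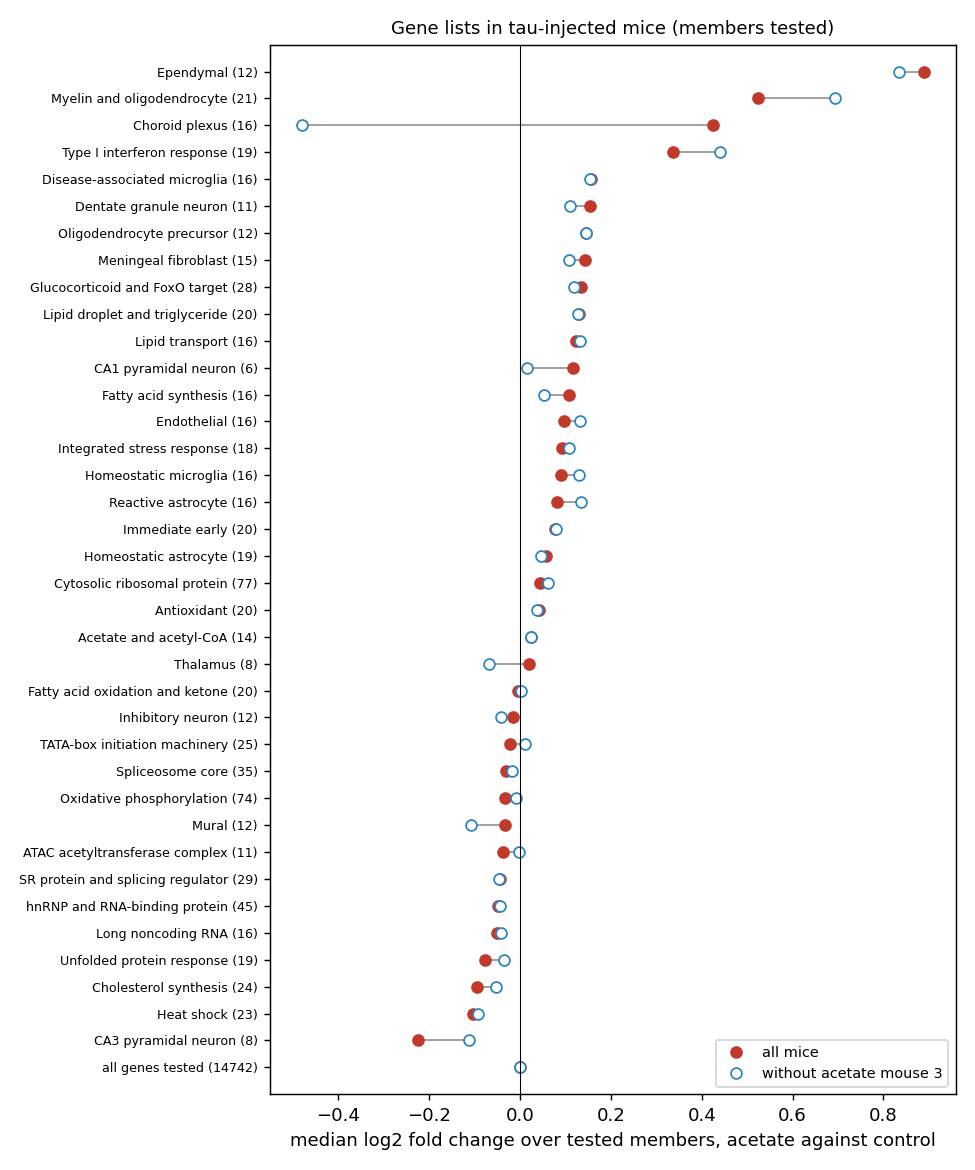
Median log2 fold change of acetate against control diet over the tested members of each gene list (number in brackets), with all mice (filled) and without acetate mouse 3 (open). The choroid plexus median crosses from 0.42 to -0.48, the myelin median moves from 0.52 to 0.69 and the ependymal median stays near 0.9, while all genes tested lie at 0.00. The blood list is not drawn, since 1 of its genes was tested.

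DESeq2's Wald test on the same 12 mice, the tool of the study's methods, called 69 of the 8001 genes with an adjusted p higher (0.862%) and 106 lower (1.32%). Of the 69, 31 were among the genes edgeR called without acetate mouse 3, and of the 106, 6 were. In 102 of the 106 lower genes the 3 acetate mice lay below the 3 control mice, against 7.77% of all genes tested. All 106 kept a negative value when acetate mouse 3 was left out. The 106 were called for being lower in these same mice, which largely fixes both counts. With all mice, edgeR called 3 of the 106. The genes described next were picked after their values were seen, for their known place at the synapse. Snap25, a vesicle fusion protein, had 2470, 2504 and 2545 CPM in the control mice and 2211, 2080 and 1902 CPM in the acetate mice (log2 fold change -0.28, DESeq2 adjusted p = 0.0427, edgeR adjusted p = 0.211). Gria2, an AMPA receptor subunit, had 1192, 1219 and 1265 CPM against 1129, 1115 and 1131 CPM (log2 fold change -0.12, DESeq2 adjusted p = 0.0692, edgeR adjusted p = 0.309). In both genes every acetate mouse was below every control mouse, and in Snap25 the lowest was acetate mouse 3, without which its log2 fold change was -0.22.

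Whether these diet effects differ from those in PBS-injected mice was tested as an interaction, for which 230 of 14742 genes passed (1.56%). Of the 9 called genes, 5 passed, Plin4, Car14, Myoc, Scd1 and Rgma, and of the 57 further genes called without acetate mouse 3, 28 passed. These genes were chosen on the same tau-injected mice, which in part fixes both the count and the direction. In Scd1 the diet effects were opposite, with 214, 211 and 195 CPM in PBS-injected control mice and 166, 161 and 153 CPM in PBS-injected acetate mice, a log2 fold change of -0.37 against 0.34 in tau-injected mice (interaction 0.71, SE 0.09, edgeR adjusted p = 0.00240). Plin4 had 3.67, 2.70 and 4.54 CPM in PBS-injected control mice and 2.78, 2.42 and 2.68 CPM in PBS-injected acetate mice (interaction 1.80, SE 0.31, edgeR adjusted p = 0.0261). In both genes the control mice of the tau-injected group, too, lay below those of the PBS-injected group without overlap. Myoc had a log2 fold change of 0.00 in PBS-injected mice, with 15.3, 19.6 and 17.6 CPM in control and 16.5, 17.7 and 18.1 CPM in acetate mice (interaction 0.78, SE 0.14, edgeR adjusted p = 0.0300).

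The lower genes and Arrdc2 gave no detectable interaction. Dr1 had a log2 fold change of -0.24 in PBS-injected mice (interaction -0.13, SE 0.09, edgeR adjusted p = 0.597) and Luzp2 of -0.20 (interaction -0.10, SE 0.08, edgeR adjusted p = 0.635). Both were also called lower with acetate in PBS-injected mice (edgeR adjusted p = 0.0491 for Dr1 and 0.0458 for Luzp2). For Nlgn1 the interaction was -0.18 (SE 0.07, edgeR adjusted p = 0.276), and Arrdc2 one of 0.36 (SE 0.14, edgeR adjusted p = 0.289). Myelin genes were negative in PBS-injected mice in 21 of 21 genes, at a median of -0.52 against 0.52 in tau-injected mice. Of the 21, 4 passed the interaction test, against 1.56% of all genes. Ependymal genes were negative in PBS-injected mice in 12 of 12, at a median of -1.22, and 7 of 12 passed. The 2 control groups differed as well. Their summed myelin level was 8322 to 10773 CPM after PBS and 5563 to 6756 CPM after tau, and the ependymal level 74.8 to 92.5 CPM and 42.7 to 57.5 CPM. Fa2h, of the myelin list, had an interaction of 1.21 (edgeR adjusted p = 0.0466) and Tppp3, of the ependymal list, one of 1.28 (edgeR adjusted p = 0.0206).

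**Figure D5:**
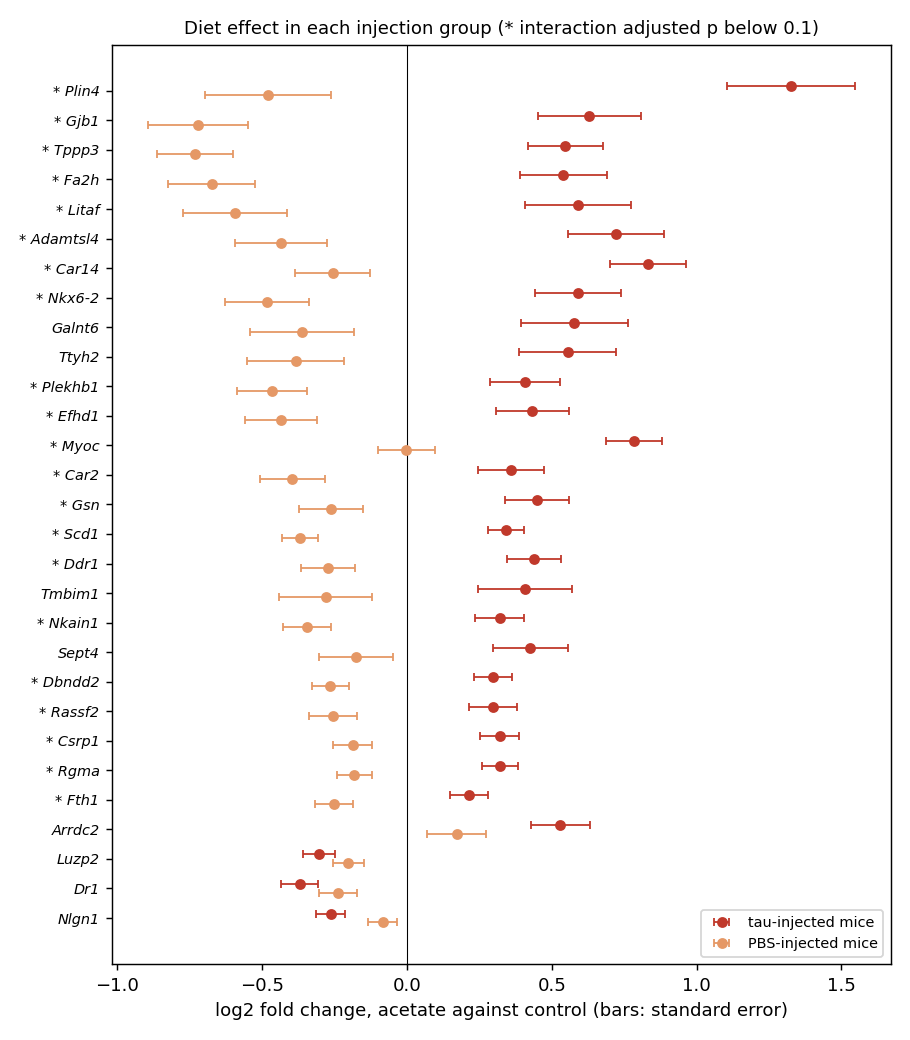
Log2 fold change of acetate against control diet, with its standard error as bars, in tau-injected and in PBS-injected mice for the 9 called genes and the 20 genes chosen from the fit without acetate mouse 3, sorted by the difference, with an asterisk where the interaction had an adjusted p below 0.1. All but Dr1, Luzp2 and Nlgn1 have a positive value in tau-injected mice, and of these all but Arrdc2 have a value at or below 0.00 in PBS-injected mice.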

How the data were processed

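RNA from the dorsal hippocampus of 12 mice (3 for each injection and diet) was poly(A)-selected and sequenced. The authors aligned reads to GRCm38 with STAR 2.5.2a, handled alignments with SAMtools 1.1 and counted reads on exons by gene on the reverse strand with HTSeq 0.9.1. They deposited raw counts for 24985 genes and 12 mice without normalization, and the annotation is not given in the sources used here.

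From the deposited counts, filterByExpr (minimum count 10, minimum total 15) kept 14742 genes, or 14917 without tau-injected acetate mouse 3. edgeR 4.0.16 (R 4.3.3) fitted 1 mean per group over the 12 mice with TMM factors and tested contrasts by the quasi-likelihood F test, with 8 residual degrees of freedom (7 without that mouse). Standard errors come from the F statistic. Benjamini-Hochberg adjustment took in every gene tested, and calls had an adjusted p below 0.1. DESeq2 1.42.0 was the alternative. The functions were tested on simulated data. Totals of 12983233 to 20218340 reads per mouse make the spread between mice the larger error except for genes at a few CPM, where counting error adds to it.

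The comparison, the 38 gene lists, the genes named and the mouse left out were chosen with earlier results of these data known. Named were every gene called with all mice, list members called in either fit, and Acss2, Ttr and Xist. So were the 20 genes with the smallest p called without tau-injected acetate mouse 3 whose mice did not overlap. List members with the largest change (2 per list, 4 in lists of over 20) were eligible too, but only some are described. Members left out include log2 fold changes of 2.16 (disease-associated microglia), 1.32 (meningeal) and -0.96 (ribosomal protein). Genes outside these rules are named as picked after their values were seen, as members called by DESeq2, or, for the 4 further lower genes, as called without that mouse. Positions come from GENCODE mouse release 21, which holds 98.2% of the symbols. Replicate numbers did not pair the tau-injected mice (correlations of same-numbered deviations -0.02, 0.00 and -0.07). Replicates differed by more than counting noise. Alternatives were another tool, scaling, filter, threshold, a block, a choroid plexus covariate and each mouse left out, and members called by DESeq2 per list were added after seeing the data.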

Additional observations from a re-analysis of the deposited data

Results flagged for a closer look

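The response to the diet was not the same after tau as after PBS injection, by the interaction test (edgeR adjusted p below 0.1) in 21 of the 29 genes named from the main comparison, against 1.56% of all genes, each with a more positive response in tau-injected mice. The 29 genes were chosen for their difference in the same tau-injected mice (6 for being higher with all mice and 20 without acetate mouse 3), so the share and the direction are partly fixed by the choice. The interaction, on the log2 scale, was 1.80 for Plin4, 1.09 for Car14, 0.78 for Myoc, 0.71 for Scd1 and 0.50 for Rgma. Among genes of the myelin and ependymal lists it was 1.35 for Gjb1, 1.21 for Fa2h, 1.07 for Nkx6-2 and 1.28 for Tppp3. For the others it was 1.18 for Litaf, 1.15 for Adamtsl4, 0.87 for Plekhb1, 0.87 for Efhd1, 0.75 for Car2, 0.71 for Gsn, 0.71 for Ddr1, 0.66 for Nkain1, 0.56 for Dbndd2, 0.55 for Rassf2, 0.51 for Csrp1 and 0.47 for Fth1. Scd1, Car14, Rgma, Dbndd2 and Tppp3 kept the call when the 12 mice were left out 1 at a time, and 16 of the 21 lost it without PBS-injected acetate mouse 2.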

How the results depend on the processing

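Every log2 fold change and interaction of the 29 named genes kept its sign under all alternatives that gave a value, while counts of calls moved widely. The choice of these genes for their difference in the same tau-injected mice largely fixes the sign of the log2 fold changes. With all mice, 6 genes were called higher and 3 lower. DESeq2 called 69 and 106 on the 12 mice and 77 and 60 on the 6 tau-injected mice, edgeR on those 6 called 2 and 0, no filter gave 39 and 17, and an adjusted p below 0.05 gave 3 and 0. DESeq2 size factors gave 6 lower calls and the choroid plexus covariate 1, where Luzp2, Arrdc2, Nlgn1 and Rgma lost their calls. With each mouse left out, higher calls ran from 1 (tau-injected control mouse 2 or 3) to 59 (tau-injected acetate mouse 3) and lower calls from 0 to 13. Leaving out PBS-injected acetate mouse 1 or 2 gave 3 and 0, tau-injected acetate mouse 1 gave 2 and 0, and mouse 2 of that group gave 23 and 4, while tau-injected control mouse 1 gave 9 and 13. Without tau-injected acetate mouse 3, the 59 higher and 7 lower calls became 145 and 23 by DESeq2, and 116 and 2 by edgeR on the 5 tau-injected mice. Leaving out a second tau-injected mouse gave 1 to 82 higher and 0 to 2 lower calls, with 1 higher call without control mouse 1 or 2 and 3 without acetate mouse 1, where the lone acetate mouse is assumed to vary like the other groups. The 230 interactions became 434 by DESeq2 and 8 to 442 with 1 mouse left out. The lowest count came without PBS-injected acetate mouse 2. Among the tau-injected mice, it was 22 with acetate mouse 1 left out, 47 and 113 with control mice 2 and 1 and 442 with acetate mouse 3. Among the PBS-injected mice, it was 102 and 144 with control mice 2 and 1 and 127 with acetate mouse 1. With the replicate number as a block, which did not pair the tau-injected mice, 8 genes were called higher, 2 lower and 349 by interaction, and Arrdc2, Nlgn1 and Rgma lost their calls. The median of all genes stayed at 0.00 under both scalings. The cause of these shifts was not tested. Groups of 3 mice and genes at a few CPM, such as Plin4, limit what can be detected.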
